A study of Mus musculus with 6 samples.

Results

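The NF-κB transcription factors and the proteins that hold them back were followed through 10 genes in osteoclast precursors (OCPs) that had or lacked the long noncoding RNA lincRNA-EPS. The genes were picked by symbol from a deposited table of 57180 genes. The set was drawn up with earlier results of these data known. They were the 5 Rel family subunits *Nfkb1*, *Nfkb2*, *Rela*, *Relb* and *Rel*, and the IκB family genes *Nfkbia*, *Nfkbib*, *Nfkbie* and *Nfkbiz*. The last was *Tnfaip3*, which encodes the ubiquitin-editing enzyme A20. The IκB family genes and *Tnfaip3* are called inhibitors below. *Nfkbiz* is among them by family, and its product is a nuclear protein that works with a subunit. All 10 passed the filter on low counts that left 13428 genes for testing. RNA came from bone marrow-derived macrophages of wild-type (WT) C57BL/6 mice and of lincRNA-EPS-/- mice (KO), with 3 independent cultures of each genotype and 1 library per culture. Both genotypes had M-CSF at 40 ng/mL for 24 h and then RANKL at 40 ng/mL for a further 48 h, so no culture without RANKL stands beside them. No transgene or cell type-specific Cre is named for either genotype. The age of the donor mice and their number per genotype are not given in the sources used here.

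NF-κB proteins work as dimers that wait in the cytoplasm, bound by IκB proteins. When a receptor signals, the IKK kinase complex marks the IκB for destruction, and the dimer moves to the nucleus and switches on its target genes, among them the genes of its own inhibitors. In the canonical branch the dimers are mostly built from RELA or c-REL with p50, the processed product of *Nfkb1*. In the noncanonical branch the kinase NIK drives the processing of the *Nfkb2* product to p52, the partner of RELB. RANK, the receptor for RANKL, uses both branches, and mice that lack both *Nfkb1* and *Nfkb2* form no osteoclasts. The question here was whether the loss of lincRNA-EPS, which is known to restrain inflammatory genes in macrophages, went with other transcript levels of these subunits and brakes in RANKL-primed cells.

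Because several of these genes are known targets of NF-κB themselves, their start-site windows are shown first. The κB consensus, the sequence that NF-κB dimers bind, was searched on both strands in the 250 bases before each annotated start in RefSeq promoters on GRCm38.p6. It was found in 7.25% of 32851 promoters, and 1.03% held 2 or more matches, counting overlapping ones. Of the genes studied, 7 had a promoter in that table, with 10 promoters between them. A match lay in 7 of these 10 promoters, and 5 genes had a match in at least 1 of theirs. The 3 windows below belong to an IκB gene, to the A20 gene and to a subunit gene, and are printed because they hold the matches nearest to a RefSeq start. They run 5′ to 3′ on the strand of the gene, end at the base before the start, and carry the matches in capitals.

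*Nfkbia*, chr12:55492648-55492897, minus strand: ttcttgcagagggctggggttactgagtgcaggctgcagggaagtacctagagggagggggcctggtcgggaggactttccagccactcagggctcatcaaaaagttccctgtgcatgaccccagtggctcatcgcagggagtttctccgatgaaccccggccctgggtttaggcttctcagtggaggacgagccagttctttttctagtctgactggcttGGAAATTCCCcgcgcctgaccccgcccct
*Tnfaip3*, chr10:19015411-19015660, minus strand: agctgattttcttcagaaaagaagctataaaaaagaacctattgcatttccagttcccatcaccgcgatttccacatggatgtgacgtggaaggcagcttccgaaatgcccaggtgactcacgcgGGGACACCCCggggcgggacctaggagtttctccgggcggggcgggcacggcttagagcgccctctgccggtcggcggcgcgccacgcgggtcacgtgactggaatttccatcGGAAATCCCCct
*Nfkb2*, chr19:46304487-46304736, plus strand: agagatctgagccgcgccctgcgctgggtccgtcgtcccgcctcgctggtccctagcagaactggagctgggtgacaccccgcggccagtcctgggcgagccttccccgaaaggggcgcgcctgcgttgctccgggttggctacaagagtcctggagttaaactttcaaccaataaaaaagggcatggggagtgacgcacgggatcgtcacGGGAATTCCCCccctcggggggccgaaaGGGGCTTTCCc

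In *Nfkbia* the match GGAAATTCCC lay 29 to 20 bases before the start. *Tnfaip3* has 2 RefSeq promoters, of which the one printed had GGGACACCCC 125 to 116 bases before its start and GGAAATCCCC 12 to 3 bases before it, and the other had no match. *Nfkb2* has 3. In the one printed, 2 matches overlapped, GGGAATTCCC and GGAATTCCCC, and together they lay 39 to 29 bases before the start, followed by GGGGCTTTCC at 11 to 2 bases. The others held GGAATGTCCC at 236 to 227 and GGGACTTTCC at 225 to 216 bases before their own starts, and the bases after the start of the last were found in 4 GENCODE transcripts, against 2 for the start of the printed window. The gene positions given below are from GENCODE M21, which places some starts elsewhere. Its gene spans cover 247 of the 250 bases printed for *Tnfaip3* and all 250 printed for *Nfkb2*, so these matches lie after the outermost start in that annotation, whereas 0 of the bases printed for *Nfkbia* are covered. *Rel* held the overlapping matches GGGAAATCCC and GGAAATCCCC, 92 to 82 bases before its start, and *Nfkbie* held GGGGGATTCC at 106 to 97 bases. The windows of *Rela* and *Nfkbib* had no match to these letters. A match is a string of letters and was not measured as a binding site in these cells.

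The libraries held 17757351 to 19998611 estimated counts each, with 19104 to 19701 genes detected. LincRNA-EPS, listed as *Ttc39aos1* and encoded at chr4:109403794-109406155 in GRCm38, was counted 20, 37 and 41 times in the WT libraries and never in a KO library. Its level was at least 10.8-fold lower in KO OCPs, taking 3 counts per library as the floor. Macrophage markers summed to 17316.3 to 18374.5 normalized counts (CPM, counts scaled by edgeR's TMM to a common library size) in WT and 15542.0 to 18245.5 CPM in KO libraries, and osteoclast precursor markers to 5460.9 to 5902.6 and 7250.8 to 7678.5 CPM. All 12 neutrophil markers were detected, and they summed to 1387.9 to 1557.0 CPM in WT and 1811.1 to 2178.4 CPM in KO libraries. Of the 11 that were tested, 6 were higher and 1 was lower in KO at an unadjusted edgeR p under 0.05, beside 13.0% and 13.2% of all genes tested, while *Ly6g*, which defines mature neutrophils, stood at 0.154 CPM in WT and 0.103 CPM in KO OCPs, near the floor. Markers of T and NK cells, B cells, erythroid, stromal, dendritic, mast and endothelial cells summed to at most 20.8 CPM per list in any library. The part of these cells in the results below was not tested, and in bulk RNA fewer cells of a type and less RNA per cell cannot be told apart.

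None of the 10 genes passed the test between genotypes. Transcripts of 4 subunits had lower mean levels in KO than in WT OCPs, at 0.739 to 0.824 of WT, and the fifth subunit gene, *Rel*, stood at 1.17 of WT. Among the inhibitors, *Nfkbie* stood at 0.777 and *Nfkbib* at 0.820 of WT, whereas *Nfkbia*, *Tnfaip3* and *Nfkbiz* had means at 1, 1.03 and 0.935 of WT. A gene was called with edgeR's quasi-likelihood test at a Benjamini-Hochberg adjusted p under 0.01 and a fold change above 1.3. By that rule 0 of the 10 were called in either direction, against 0.00745% of all genes tested called lower and 0% called higher. The gene behind that share, *Dtx3l*, is no NF-κB gene, and it is named because it was seen to be the only call. DESeq2's Wald test with the same limits called 0 of the 10 as well, against 0.628% of genes lower and 0.489% higher. With 3 and 3 libraries the smallest 2-sided p that exact permutation allows is 0.1, and no such test was run.

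*Rela*, at chr19:5637483-5648130 in GRCm38, encodes p65, the subunit that carries most of the activating function in canonical dimers. It had 93.7, 125 and 93.8 CPM in WT replicates 1, 2 and 3, and 88.2, 81.8 and 61.1 CPM in KO replicates 1, 2 and 3. Every KO library lay below every WT library, with WT replicate 2 far above the other WT libraries and KO replicate 3 far below the other KO libraries. The log2 fold change was -0.44 (SE 0.16, 95% interval -0.81 to -0.063, edgeR adjusted p = 0.161), and it was -0.28 without WT replicate 2 and -0.29 without KO replicate 3.

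*Nfkb2*, at chr19:46304320-46312385, encodes p100, which acts as an IκB until NIK signalling turns it into p52. It had 239, 296 and 242 CPM in WT and 224, 206 and 147 CPM in KO replicates 1 to 3. The groups did not overlap, and the same libraries, WT replicate 2 and KO replicate 3, stood at the ends. The log2 fold change was -0.43 (SE 0.16, 95% interval -0.80 to -0.064, edgeR adjusted p = 0.161), and it was -0.27 without KO replicate 3.

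*Relb*, at chr7:19606217-19629438, encodes the partner of p52. It had 40.9, 56.4 and 44.2 CPM in WT and 42.3, 38.5 and 26.4 CPM in KO replicates 1 to 3, so that KO replicate 1 lay above WT replicate 1. Its log2 fold change was -0.40 (SE 0.19, 95% interval -0.83 to 0.026, edgeR adjusted p = 0.207), and it was -0.25 without WT replicate 2 and -0.22 without KO replicate 3.

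*Nfkb1*, at chr3:135584655-135691547, encodes p105, the precursor of p50, which pairs with RELA and c-REL and as a homodimer can repress. It had 189.0, 223.4 and 193.8 CPM in WT and 188.8, 159.5 and 151.0 CPM in KO replicates 1 to 3. The groups did not overlap, but only by the small gap between WT replicate 1 and KO replicate 1. The log2 fold change was -0.28 (SE 0.12, 95% interval -0.54 to -0.018, edgeR adjusted p = 0.174).

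*Rel*, at chr11:23736847-23770970, encodes c-REL, a subunit best known from lymphocytes and from the control of *Il12b* in macrophages. It had 64.9, 55.6 and 63.5 CPM in WT and 72.2, 68.3 and 74.5 CPM in KO replicates 1 to 3. All KO libraries lay above all WT libraries, whereas the means of the other subunits were lower in KO. The log2 fold change was 0.22 (SE 0.10, edgeR adjusted p = 0.191).

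**Figure D1:**
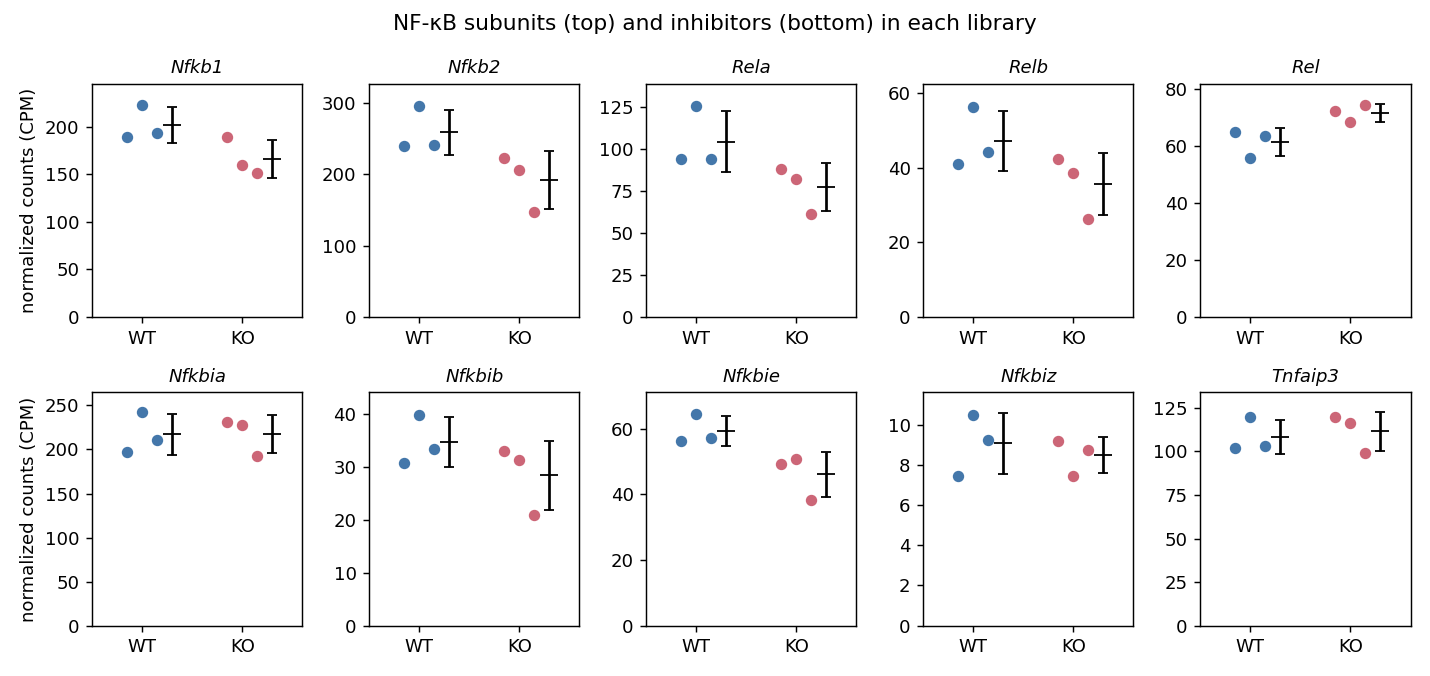
Normalized counts (CPM, linear axes from 0) of the 5 subunits (top) and 5 inhibitors (bottom) in each WT and KO library, shown as points in the order of replicates 1 to 3, with the mean and SD (n = 3) as a bar beside them. *Nfkb1*, *Nfkb2*, *Rela* and *Nfkbie* have all KO points below all WT points, *Rel* has them above, and the other 5 genes overlap.

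*Nfkbia* encodes IκBα, the inhibitor that is destroyed and remade fastest, and lies at chr12:55489410-55492647. It had 198, 243 and 211 CPM in WT and 231, 228 and 193 CPM in KO replicates 1 to 3, with the KO libraries inside the WT range but for KO replicate 3. Its log2 fold change was 0.0013 (SE 0.11, edgeR adjusted p = 0.995), and the 95% interval, -0.26 to 0.26, covers folds of 0.836 to 1.20.

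*Tnfaip3*, at chr10:19000910-19015657, encodes A20, which takes apart the ubiquitin chains that receptors use to reach IKK. It had 102, 120 and 103 CPM in WT and 120, 116 and 98.9 CPM in KO replicates 1 to 3. The groups overlapped, with KO replicate 1 level with WT replicate 2 and KO replicate 3 below every WT library. Its log2 fold change was 0.044 (SE 0.11, 95% interval -0.21 to 0.30, edgeR adjusted p = 0.819).

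*Nfkbie*, at chr17:45555703-45563169, encodes IκBε, an inhibitor that is resynthesized later than IκBα and acts on RELA and c-REL dimers. It had 56.4, 64.5 and 57.2 CPM in WT and 49.4, 50.7 and 38.3 CPM in KO replicates 1 to 3, without overlap. Among the 10 genes it had the smallest p, with a log2 fold change of -0.36 (SE 0.13, 95% interval -0.65 to -0.074, edgeR adjusted p = 0.153), and it ranked 1687 of the 13428 genes by p. The genes with the most similar profile over the 6 libraries were *Kif3c*, *Sh3bp5l* and *Pgs1*, at root mean square distances of 0.0201, 0.0227 and 0.0253 between log2 CPM values centred on their means.

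*Nfkbib*, at chr7:28758251-28767512, encodes IκBβ, which is degraded more slowly and is not a strong NF-κB target. It had 30.7, 39.9 and 33.4 CPM in WT and 33.0, 31.4 and 20.98 CPM in KO replicates 1 to 3, with KO replicates 1 and 2 inside the WT range. Its log2 fold change was -0.29 (SE 0.18, 95% interval -0.69 to 0.12, edgeR adjusted p = 0.321), and it was -0.17 without WT replicate 2 and -0.11 without KO replicate 3.

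*Nfkbiz*, at chr16:55811375-55838899, encodes IκBζ, a nuclear member of the family that works with p50 on secondary response genes and is strongly induced by Toll-like receptor ligands. It had 7.47, 10.5 and 9.24 CPM in WT and 9.22, 7.48 and 8.76 CPM in KO replicates 1 to 3, from 130 to 192 counts a library, and the KO values fell within the WT range. Its log2 fold change was -0.093 (SE 0.17, 95% interval -0.47 to 0.28, edgeR adjusted p = 0.732).

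The same counts were taken over all genes tested. At an unadjusted edgeR p under 0.05, 4 of the 10 genes were lower in KO (*Nfkb1*, *Nfkb2*, *Rela* and *Nfkbie*) and 0 were higher, beside 13.2% and 13.0% of all genes. The WT and KO libraries did not overlap for 5 of the 10, beside 35.7% of all genes, with 4 of them lower (18.8% of all genes) and 1 higher (16.9%). The median log2 fold change was -0.28 over the 10 genes and 0.0091 over all genes, and 7 of the 10 were below 0, beside 49.0% of all genes. With 1 library left out the median of the 10 ranged from -0.39 to -0.16, the value without KO replicate 3. KO replicate 3 was the lowest of the 6 libraries for 8 of the 10 genes, and WT replicate 2 the highest for 8. Without WT replicate 2, 0 of the 10 were lower at an unadjusted p under 0.05, beside 5.60% of all genes in that fit. Without KO replicate 3 there were 2, beside 10.3%. Without WT replicate 1 or 3 there were 5 and 3, beside 10.9% and 10.4%, and without KO replicate 1 or 2 there were 5 and 3, beside 16.7% and 9.24%.

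The fold changes varied with the base composition of the transcripts. Across 13176 tested genes with a GC value, the log2 fold change had a Pearson correlation of -0.51 with the GC content of the longest transcript, where genes of a library are not independent replicates. A trend of the same kind separated WT replicate 2 and KO replicate 3 from the other libraries of their genotype. Its correlation was 0.522 for KO replicate 1 against KO replicate 3 and -0.426 for WT replicate 1 against WT replicate 2. In the same-genotype pairs without WT replicate 2 or KO replicate 3 it was -0.0408 (WT replicate 1 against 3) and 0.101 (KO replicate 1 against 2). Of the 10 genes, 7 lay above the median GC content of 49.2%. *Rela* and *Nfkb2* had 59.4%, *Nfkbib* 58.8%, *Relb* 56.8% and *Nfkbie* 55.4%, while *Rel* had the lowest value, 42.5%.

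**Figure D2:**
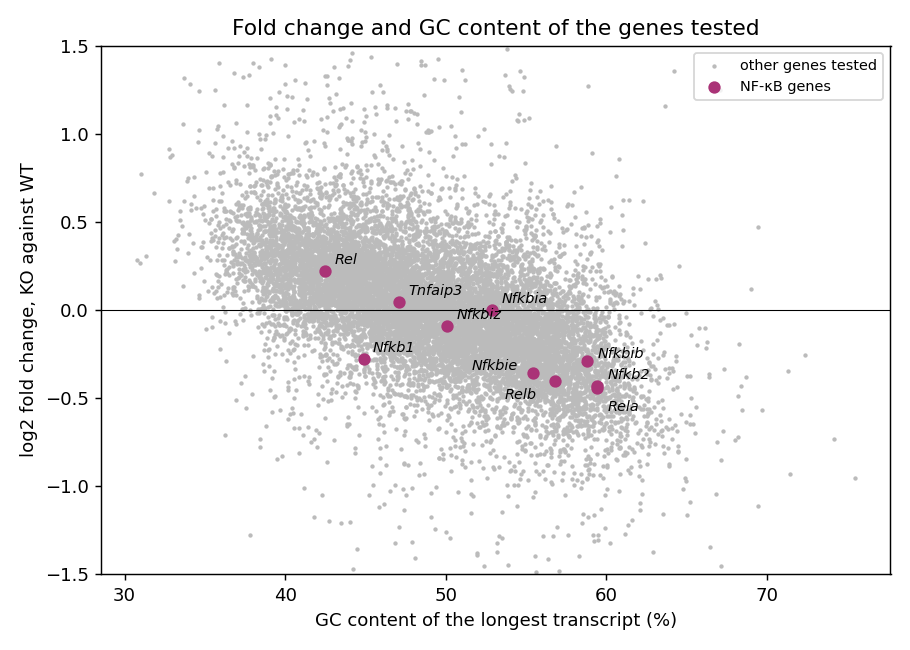
Log2 fold change between KO and WT (y axis) against GC content of the longest transcript in percent (x axis) for the genes tested, with the 10 NF-κB genes in purple and genes beyond 1.5 log2 units not drawn. The cloud slopes down from left to right, *Rel* sits at 42.5% GC and 0.22, *Rela* and *Nfkb2* overlap at 59.4% GC and about the same fold change, and *Nfkb1* sits at 44.9% GC and -0.28.

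With a GC correction in the fit, the values of *Rela*, *Nfkb2* and *Rel* drew close to 0, and only the intervals of *Nfkb1* and *Nfkbie* among the 10 lay below 0. The log2 fold change became -0.094 (95% interval -0.25 to 0.066) for *Rela*, -0.10 (-0.23 to 0.038) for *Nfkb2* and -0.17 (-0.40 to 0.056) for *Relb*. For *Rel* it became 0.026 (-0.14 to 0.20) and for *Nfkbib* 0.019 (-0.16 to 0.20). *Nfkbie* had -0.18 (-0.33 to -0.027, edgeR adjusted p = 0.144). *Nfkbia*, *Tnfaip3* and *Nfkbiz* had 0.11, -0.027 and -0.068, each with an interval across 0. With GC content taken as the mean over a gene's transcripts *Relb* had -0.06 and *Nfkbiz* -0.16.

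*Nfkb1* moved away from 0, to -0.41 (SE 0.13, 95% interval -0.71 to -0.11, edgeR adjusted p = 0.108). DESeq2 with the same correction gave an adjusted p of 0.0221 for it, past 0.05 but not past the limit of 0.01, where 2.55% of genes were lower at an adjusted p under 0.05 and a fold above 1.3. The value rests on which transcript stands for the gene. The longest *Nfkb1* transcript has 44.9% GC and the mean of its 10 transcripts has 51.5%, and with that mean the log2 fold change was -0.24 (edgeR adjusted p = 0.136). After GC correction 2 of the 10 genes were lower at an unadjusted p under 0.05, *Nfkb1* and *Nfkbie*, beside 13.8% of all genes, and 0 were higher, beside 12.0%. The median over the 10 genes was -0.081, beside -0.0061 over all genes.

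**Figure D3:**
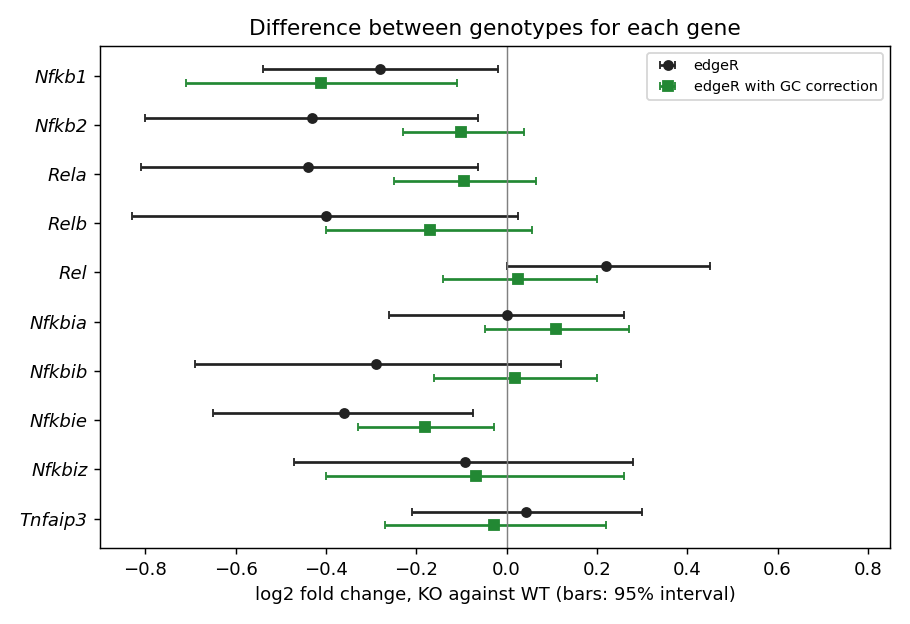
Log2 fold change (KO against WT, x axis) of each of the 10 genes with its 95% interval, from edgeR (black circles) and from edgeR with GC correction (green squares). Correction moves 8 of the 10 estimates closer to 0, moves *Nfkb1* from -0.28 to -0.41, and leaves the intervals of *Nfkb1* and *Nfkbie* below 0.

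Levels of different genes can be set side by side only per length of transcript. In WT OCPs *Nfkbia* had the highest level, at 138 ± 14.7 CPM per kb (SD, n = 3), ahead of *Nfkb2* at 67.3 ± 8.29, *Nfkb1* at 48.7 ± 4.5 and *Rela* at 38.4 ± 6.67 CPM per kb. *Nfkb1* and *Rela* were within their spread of each other. *Nfkbie*, *Tnfaip3*, *Nfkbib* and *Relb* followed at 19.7, 17.5, 16.8 and 14.4 CPM per kb, each within the spread of its neighbour, then *Rel* at 8.21 and *Nfkbiz* at 2.20 CPM per kb. In KO OCPs the order ran *Nfkbia* at 138, *Nfkb2* at 50, *Nfkb1* at 40.1 and *Rela* at 28.4 CPM per kb. There *Nfkb2* and *Nfkb1* were within their spread of each other, and *Relb* at 10.9 and *Rel* at 9.60 CPM per kb were no longer apart beyond their spread. The length of *Nfkb1* is uncertain, since its longest transcript has 4149 bases and its exons together cover 12061. By exon cover its WT level was 16.8 CPM per kb, below that of *Rela* at 33.9.

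A ratio within a library does not depend on how libraries are scaled, so the inhibitors were set against the summed level per kb of the 5 subunits. The ratios were chosen with earlier results of these data known and are given as a description, with no test. For *Nfkbia* the ratio was 0.766, 0.763 and 0.805 in WT and 0.923, 1.01 and 1.06 in KO replicates 1 to 3. Every KO library lay above every WT library, with means of 0.778 ± 0.0231 and 0.998 ± 0.0700 (SD, n = 3), or 1.28 times the WT ratio in KO OCPs. Among single genes, 35.7% of all tested had no overlap between genotypes. No such rate was taken over ratios or subunit shares. With GC-corrected levels the means were 0.794 and 0.978, 1.23 times, again without overlap, and by exon cover KO stood at 1.29 times the WT ratio.

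*Tnfaip3* stood at 0.101, 0.0958 and 0.100 of the subunits in WT and 0.122, 0.131 and 0.139 in KO replicates 1 to 3, or 1.32 times the WT ratio on average. This separation did not outlast the GC correction, after which KO stood at 1.11 times WT and the groups overlapped. The ratios of the other inhibitors overlapped between genotypes, with WT and KO means of 0.112 and 0.111 for *Nfkbie*, 0.095 and 0.0986 for *Nfkbib*, and 0.0124 and 0.0151 for *Nfkbiz*. With GC-corrected levels those of *Nfkbib* no longer overlapped, with means of 0.0902 and 0.104.

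The makeup of the subunit transcripts was compared in the same way. *Rel* took 4.71% ± 0.885 of the summed level per kb in WT and 7.05% ± 1.41 in KO OCPs (SD, n = 3), without overlap, from 3.70% in WT replicate 2 to 8.67% in KO replicate 3. With GC-corrected levels its share was 5.31% and 6.12%, still without overlap. *Nfkb2* held 38.0% in WT and 35.8% in KO OCPs, and *Nfkb2* with *Relb*, the noncanonical pair, 46.1% and 43.5%, but with GC correction both of these shares were higher in KO. *Nfkb1* held 27.6% and 29.1%, and with GC correction 30.7% and 26.2%, so its direction turned as well. By exon cover *Nfkb1* held 13.2% and 14%, *Nfkb2* 44.3% and 41.9%, and *Rel* 6.54% and 9.87%. These differences leaned on KO replicate 3. Without it the KO minus WT difference was -0.969 percentage points for *Nfkb2*, -0.896 for *Nfkb2* with *Relb*, 0.201 for *Nfkb1* and 1.53 for *Rel*, where all 6 libraries, by longest transcript, gave -2.27, -2.59, 1.49 and 2.34.

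**Figure D4:**
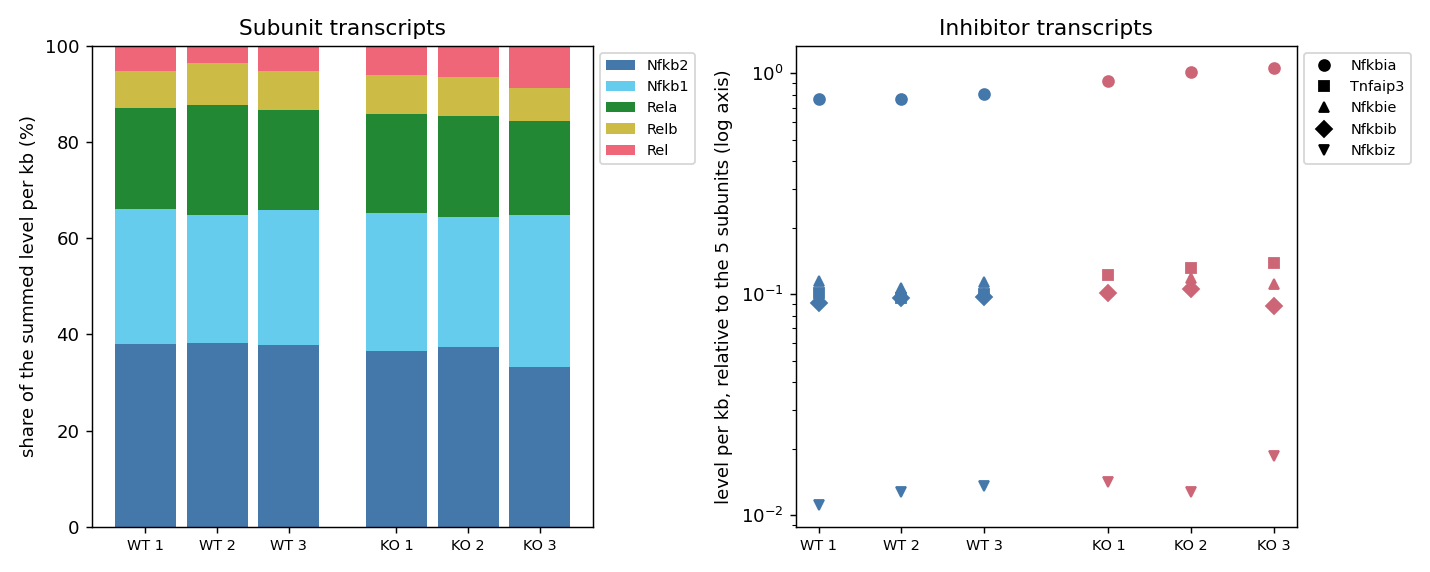
Left, share of each subunit gene in the summed level per kb of the 5 subunits (percent, stacked bars) in each library. Right, level per kb of each inhibitor relative to that sum (log axis) in each library, WT in blue and KO in red, where *Nfkbia* lies at 0.763 to 0.805 in WT and at 0.923 to 1.06 in KO libraries.

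Within the set the genes fell into patterns over the 6 libraries, given as a description because the libraries share a GC trend. *Nfkb2*, *Rela* and *Relb* had Pearson correlations of 0.985 to 0.988 with each other in log2 CPM, and *Nfkbib* and *Relb* had 0.988. *Nfkbia* and *Tnfaip3* had 0.962, while *Nfkb2* had 0.637 with *Nfkbia* and 0.525 with *Tnfaip3*. *Rel* ran against the other subunits, with -0.833 against *Nfkb1* and -0.906 against *Rela*.

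Upstream of the subunits, *Tnfrsf11a*, which encodes RANK, had 152 ± 4.52 CPM in WT and 151 ± 10.5 CPM in KO OCPs (log2 fold change -0.0088, 95% interval -0.21 to 0.20, edgeR adjusted p = 0.957). Of the 10 receptor genes examined, 0 were called by edgeR, and at an unadjusted p under 0.05, 1 was higher and 3 were lower, where 13.0% and 13.2% of all genes were. *Tnfrsf1b*, which encodes the TNF receptor TNFR2, had the smallest p of these, with 377 CPM in WT and 253 CPM in KO OCPs and a log2 fold change of -0.58 (edgeR adjusted p = 0.143, DESeq2 adjusted p = 0.00163). DESeq2 thus called it, by a rule that took 0.628% of the genes with an adjusted p as lower. The lymphotoxin receptor gene *Ltbr* had -0.44, and -0.047 with GC correction, -0.16 with GC content as the mean of transcripts and -0.28 without WT replicate 2. The interleukin 1 receptor gene *Il1r1* had 0.97 from levels of 1.05 and 2.05 CPM.

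Of 35 genes in the chain from the receptors to IKK, edgeR called 0. At an unadjusted p under 0.05, 4 were higher and 6 lower, beside the same 13.0% and 13.2% of all genes, and the median log2 fold change was -0.032. With GC correction 1 was higher and 6 were lower at that limit, beside 12.0% and 13.8% of all genes. The IKK genes gave 0.079 for *Ikbkg*, 0.20 for *Chuk* and -0.18 for *Ikbkb*, and the first pair had -0.061 and -0.039 with GC correction, but 0.086 and 0.017 with GC content as the mean of transcripts. Without KO replicate 3 *Chuk* had 0.057, and without WT replicate 2 *Ikbkb* had -0.11. *Map3k14*, which encodes NIK, had 26.5, 39.9 and 26.8 CPM in WT and 24.8, 19.95 and 15.3 CPM in KO replicates 1 to 3. The groups did not overlap, the log2 fold change was -0.63 (SE 0.21, edgeR adjusted p = 0.149), and with GC correction it was -0.32. Without WT replicate 2 it was -0.41. Of the genes whose products keep NIK low, *Traf3* had -0.34, *Traf2* -0.22, *Birc2* 0.36 and *Birc3* -0.050, and with GC correction -0.23, -0.16, 0.17 and -0.14. *Traf2* was added after its value was seen. Without KO replicate 3 *Traf3* had -0.20 and *Birc2* 0.23, and with a library left out *Traf2* ranged from -0.28 to -0.12 and *Birc3* from -0.08 to -0.021. The others named by rule were *Ikbke* at -0.34, *Traf5* at 0.32 and *Skp1* at 0.57, a component of the ligase that removes phosphorylated IκB. With GC correction these had -0.31, 0.075 and 0.42, but *Traf5* had 0.31 with GC content as the mean of transcripts. Its longest transcript has 40.8% GC and the mean is 50.3%. Without KO replicate 3 *Skp1* had 0.38.

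**Figure D5:**
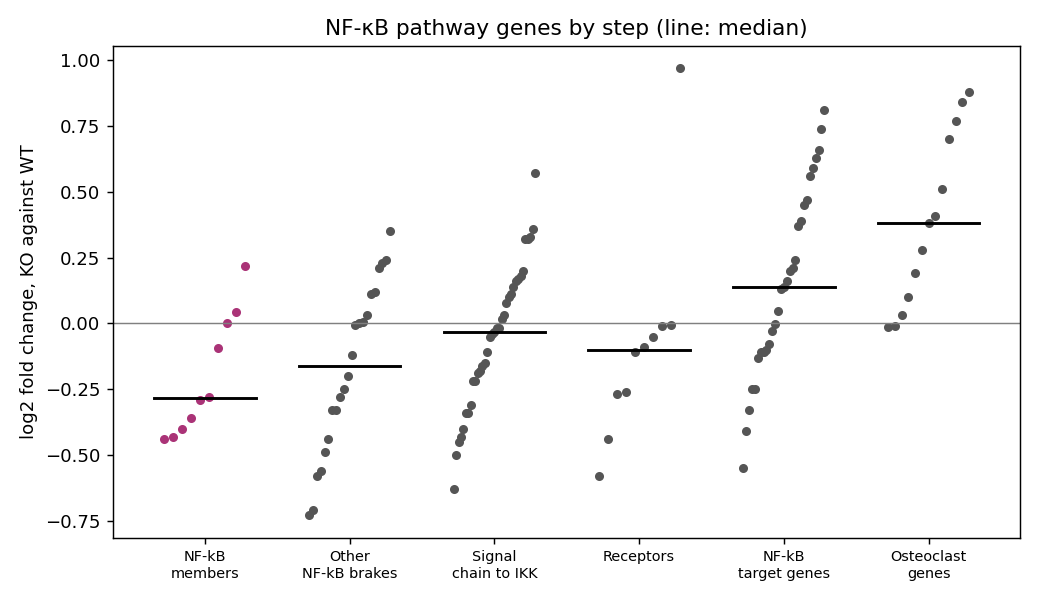
Log2 fold change (KO against WT, y axis) of every tested gene in the NF-κB set and in 5 lists of the pathway, from edgeR, each point a gene, sorted by value within its list, with the median as a line. Without GC correction, medians run from -0.28 for the NF-κB set to 0.38 for osteoclast genes.

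Of 22 other brakes on NF-κB, edgeR called 0, and at an unadjusted p under 0.05, 1 was higher and 6 were lower, beside 13.0% and 13.2% of all genes. Their median log2 fold change was -0.16, and -0.067 with GC correction. *Usp18* had -0.73 and *Nlrc3* -0.49 (edgeR adjusted p = 0.147 for both), and *Rnf11*, a partner of A20, had 0.35. With GC correction *Usp18*, which is also an interferon response gene, had -0.68, *Nlrc3* -0.33 and *Rnf11* 0.14. Without KO replicate 3 *Rnf11* had 0.19.

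Downstream, 29 of 35 classical NF-κB target genes were expressed enough to test, and edgeR called 0 of them. At an unadjusted p under 0.05, 8 were higher and 3 were lower, beside 13.0% and 13.2% of all genes, and the median log2 fold change was 0.14, or 0.069 with GC correction. *Lcn2* had 82.0 CPM in WT and 114 CPM in KO OCPs, a log2 fold change of 0.47 (edgeR adjusted p = 0.145), and 0.63 with GC correction. DESeq2 called it, as the only gene of the list (adjusted p = 0.00416). That rule took 0.489% of the genes with an adjusted p as higher. *Il1b* had 5.24 and 8.75 CPM, a log2 fold change of 0.74, and 0.64 with GC correction. *Marcksl1* had -0.55 and *Bcl2l1*, which encodes the survival factor BCL-XL, had -0.41, and with GC correction these were -0.27 and -0.20. *Il6*, *Nos2*, *Cxcl1*, *Cxcl3*, *Csf2* and *Il23a* did not pass the filter on low counts. *Lcn2* is also high in neutrophils, whose marker sums were higher in KO libraries, as given above. Of the 11 neutrophil markers tested, 6 were higher and 1 was lower at an unadjusted edgeR p under 0.05, beside the same shares. The part of neutrophils in the *Lcn2* value was not tested. The list of 13 osteoclast genes had 7 higher and 0 lower at an unadjusted p under 0.05, beside the same shares of all genes, and a median of 0.38 (0.46 with GC correction), with *Dcstamp* at 0.84 and *Ctsk* at 0.77.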

How the data were processed

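RNA-seq of 3 WT and 3 KO cultures of RANKL-primed OCPs was analysed. Per the labels, libraries were stranded mRNA libraries. The submitters' processing notes name fastp, HISAT2, StringTie, RSEM and GRCm39, without versions or order. The authors deposited estimated counts per gene, not normalized, of which 25.14% to 26.59% of detected values were not whole, and their genotype means, which were not used. The counts were rounded here, and the range of library totals is given in the report. No pair of libraries agreed within sampling noise (lowest chi-square per degree of freedom 3.58).

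In R 4.3.3, edgeR 4.0.16 was used with filterByExpr, TMM, and glmQLFit (legacy = FALSE) with glmQLFTest, and p-values were adjusted over all 13428 genes by the Benjamini-Hochberg method. The common biological coefficient of variation was 0.142. DESeq2 1.42.0 and limma 3.58.1 served as alternatives, as did other scalings, filters, limits, GC correction (natural spline with 5 degrees of freedom, on longest-transcript GC of GENCODE M21, GRCm38), a replicate block and each library left out. GC from the mean of transcripts and GC-corrected shares were added after seeing the data. Positions are on GRCm38, which differs from the build named for the counts, and the table holds no positions. Of the identifiers, 51884 had a transcript there. P-values cover the spread between these cultures, and floors cover counting error only. The fits were also run on simulated counts, and no outcome is given here. The GC bias simulated there came from the same spline as the correction, so that run cannot judge the correction.

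All 10 members were named, with up to 2 higher and 2 lower genes of each list with the smallest unadjusted p among those under 0.05 and without overlap, and fixed genes that join RANK to the members. The members and lists were chosen with earlier results of these data known.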

Additional observations from a re-analysis of the deposited data

How the results depend on the processing

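The 10 genes gave 0 calls under every alternative at the limits used. *Nfkb1*, *Nfkb2*, *Rela*, *Relb* and *Nfkbie* were below 0 in all 18 refits, with adjusted p between 0.0221 and 0.465 for *Nfkb1* and between 0.0858 and 0.442 for *Nfkbie*. Counting every p under 0.05 without a fold limit gave 1742 genes higher and 1773 lower, with 4 of the 10 among the lower ones, and 1 higher and 6 lower among the other brakes, 4 and 6 in the chain to IKK, 1 and 3 among receptors, 8 and 3 among targets and 7 higher among osteoclast genes. DESeq2 called 53 genes higher and 68 lower, among them 1 receptor lower, 1 target higher and 5 osteoclast genes higher. GC correction called 1 higher and 2 lower (1 osteoclast gene higher), with DESeq2 180 and 155 (1 receptor lower, 1 target higher, 7 osteoclast genes higher), and with the mean of transcripts 1 and 3 (1 osteoclast gene higher).

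Of the 10 genes, 1 was higher at an unadjusted p under 0.05 with DESeq2's size factors and with at least 10 counts required in every library (*Rel*), and with GC of the mean of transcripts (*Nfkbia*), beside 13.2%, 13.8% and 12.7% of all genes in those fits. The number lower was 2 with GC correction and with the mean of transcripts (*Nfkb1* and *Nfkbie*; 13.8% of all genes in both), and 1 with GC correction and the block or DESeq2 (*Nfkb1*; 11.7% and 11.4%). It was 0 to 5 with a library left out, where the share of all genes was 5.60% to 16.7% (0 and 5.60% without WT replicate 2). Leaving out a library gave 0 to 2 genes called lower in all. The median of the 10 was -0.081 with GC correction, -0.077 with the block as well and -0.078 with DESeq2. In the same order the other brakes gave -0.067, -0.066 and -0.065, the chain to IKK -0.061 and -0.063 (first and second), and osteoclast genes 0.46, 0.46 and 0.47. With a library left out the other brakes ranged from -0.21 to -0.082 and the chain from -0.054 to 0.011.

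Signs turned for several genes, of which *Nfkbib*, *Rel* and *Chuk* were at -0.29, 0.22 and 0.20 in the report. *Nfkbia* had -0.012 by library size alone, -0.0095 without a filter, and -0.063 to 0.088 with a library left out. *Nfkbib* had 0.019 with GC correction, 0.019 with the block as well, 0.022 with DESeq2 and 0.083 with the mean of transcripts, and *Tnfaip3* -0.027, -0.03, -0.025 and -0.033, and -0.007 to 0.12 with a library left out. *Rel* had -0.0025 with the mean of transcripts. *Chuk* had -0.039, -0.037 and -0.036, and *Ikbkg* -0.061, -0.063 and -0.059, but 0.017 and 0.086 with the mean of transcripts, where their signs did not turn. *Nfkbiz* ranged from -0.22 to 0.024 and *Tnfrsf11a* from -0.062 to 0.038 with a library left out. With GC-corrected levels the KO minus WT difference in share was -4.52 percentage points for *Nfkb1*, 2.27 for *Nfkb2*, 1.38 for *Rela*, 0.809 for *Rel* and 2.33 for *Nfkb2* with *Relb*, and in ratio 0.0135 for *Nfkbib* and 0.0123 for *Tnfaip3*. By exon cover the ratio differences were 0.308 for *Nfkbia* and 0.0386 for *Tnfaip3*. The cause of these differences was not tested.

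Same-numbered WT and KO libraries did not deviate together (r = -0.215, 0.0766 and 0.166), so the replicate block is an alternative only. With the block 0 genes were called higher and 1 lower, 0 of the 10 were called, 5 of the 10 were lower at an unadjusted p under 0.05, beside 13.9% of all genes, and the median of the 10 was -0.29.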
